A study of Mus musculus with 40 samples.

Results

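The comparison described here set cells of 4 F1 tumours (A, B, D and E) against cells of 4 F0 tumours (A to D), which is the first step of a serial passage of the mouse melanoma line YUMM1.7 through mice. These 8 libraries were chosen by their passage label from 40 libraries in 11 groups. All 8 are derived from YUMM1.7, a line of C57BL/6 origin that carries mutant Braf and lacks Cdkn2a, so every group shares those lesions. Tumours were dissociated, the cells were grown for 1 to 3 passages in culture, and poly(A) RNA was sequenced, so the values describe cultured cells and not whole tumour tissue. The letters stand for different tumours of a passage, and F0 A is not stated to be the source of F1 A. The labels give no strain, sex or age for the hosts of the F0 and F1 tumours. Libraries of unpassaged YUMM1.7 cells (3) and of the following passage, F2 (5), are given as reference levels.

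The values were read signals over 835636 annotated copies of transposable elements and other repeats in the mm10 genome, scaled between libraries by the authors. Most of such copies do not make a transcript of their own. Short interspersed elements (SINEs such as B1, B2, B3 and B4), long interspersed L1 elements, LTR retrovirus relatives and DNA transposons lie in the introns and the untranslated ends of ordinary genes and are read as part of the host transcript. A copy in a 3′ UTR therefore reads the mature mRNA of its host gene, and a copy in an intron reads RNA that has not been spliced, a retained intron or an independent transcript. These readings cannot be told apart in poly(A) libraries, and overlapping or antisense genes cannot be separated where the strand was not used. A lower signal can also not be told apart between fewer cells that express a gene and less RNA per cell.

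The F0 libraries held 1699060 to 2050776 reads over repeats and the F1 libraries 1502938 to 1935341, and 1 read was worth 0.867 to 1.13 units of signal. Of all copies, 33215 had a mean signal of at least 5 over the 40 libraries and were tested, and they held 83.7% of the signal. The signal was also summed over 1004 tested subfamilies (copies with 1 repeat name) and over the exon copies of 7405 tested host genes. Differences are log2 differences of signal + 1 from limma, F1 minus F0, with the standard error (SE) and the p-value adjusted over all features of that table, and a feature is said to have risen or fallen where the adjusted p is under 0.05. The p-values rest on a spread pooled within the 11 groups of all 40 libraries, unpassaged cultures included, and not on F0 and F1 tumours alone. With that spread 4870 copies had an unadjusted p under 0.05. With the spread estimated from these 8 libraries alone 0 copies, 2 subfamilies (Tigger1 and MLTR18B_MM) and 0 host genes were called. The same counts, 0, 2 and 0, resulted with the intron share of each library as a covariate. Melanocyte genes gave little evidence on the labelled cell type, since only 5 of 28 listed pigment cell genes were measurable through exon copies. Together these 5 held 188 to 237 in F0 and 163 to 393 in F1. All 5 differences were above 0 and none was called. Among them the regulator Pax3 held a small part (6.07 to 14.3 in F0 and 7.88 to 15.8 in F1). Tyr and Mlana, which define pigment cells, were at 0 in all 8 libraries, which does not show that their mRNA was absent.

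Few single copies differed between the passages, and those that did split by where they lie in a gene. At the deposited scaling 89 copies (0.268%) were called, 25 higher in F1 (0.0753%) and 64 lower (0.193%). Of 14031 tested copies in introns 45 fell and 5 rose, and of 8414 in 3′ UTRs 4 fell and 18 rose. In exons of noncoding transcripts 10 of 5147 fell, near the share of falls over all tested copies, and 1 rose. The split depends on the scaling. With TMM factors 189 copies (0.569%) were called, 140 higher and 49 lower, and with median-of-ratios factors 100 (0.301%), 50 in each direction, because the median difference over all tested copies moved from −0.23 at the deposited scaling to 0.01 with TMM. All 25 rises and 44 of the 64 falls were called under all 3 scalings. The number of calls also moved with single libraries, from 10 without F0 C to 392 without F1 E.

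The mean share of repeat signal was lower in introns and noncoding exons and higher in 3′ UTRs in F1, although none of these differences passed the threshold after adjustment. The share of a library's signal that lay in introns was 25.3, 24.7, 23.2 and 21.1% in F0 A to D and 16.1, 17.5, 14.6 and 21.4% in F1 A, B, D and E. F1 A, B and D lay below all F0 tumours, and F1 E lay within the F0 range, just above F0 D. The means were 23.6 ± 1.86% and 17.4 ± 2.95% (SD, n = 4 each), a difference of −6.17 percentage points (exact two-sided permutation p = 0.0571, adjusted over 6 classes 0.0857). The share in 3′ UTRs was 42.5, 41.9, 43.4 and 46.2% in F0 and 50.8, 50.2, 50.6 and 46.4% in F1, with no overlap, although F1 E exceeded F0 D by little. That difference, 5.97 points, had the smallest p that 4 against 4 libraries can give (exact permutation p = 0.0286, adjusted 0.0857). The share in noncoding exons was 14.5% in F0 and 12.8% in F1 (−1.70 points, exact permutation p = 0.0286, adjusted 0.0857), also with no overlap. When 1 library was left out, the intron difference ranged from −7.52 points without F1 E to −5.22 without F1 D, and over the tested copies alone it was −3.23 points. Unpassaged YUMM1.7 cells had intron shares of 16.7 to 20.3% and F2 tumours of 14.3 to 24.4%, so F0 A and F0 B lay above both reference groups. Shares by repeat class were close in the passages: SINEs held 51.4% in F0 and 51.0% in F1, and LTR elements 25.6% and 25.7%.

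**Figure D1:**
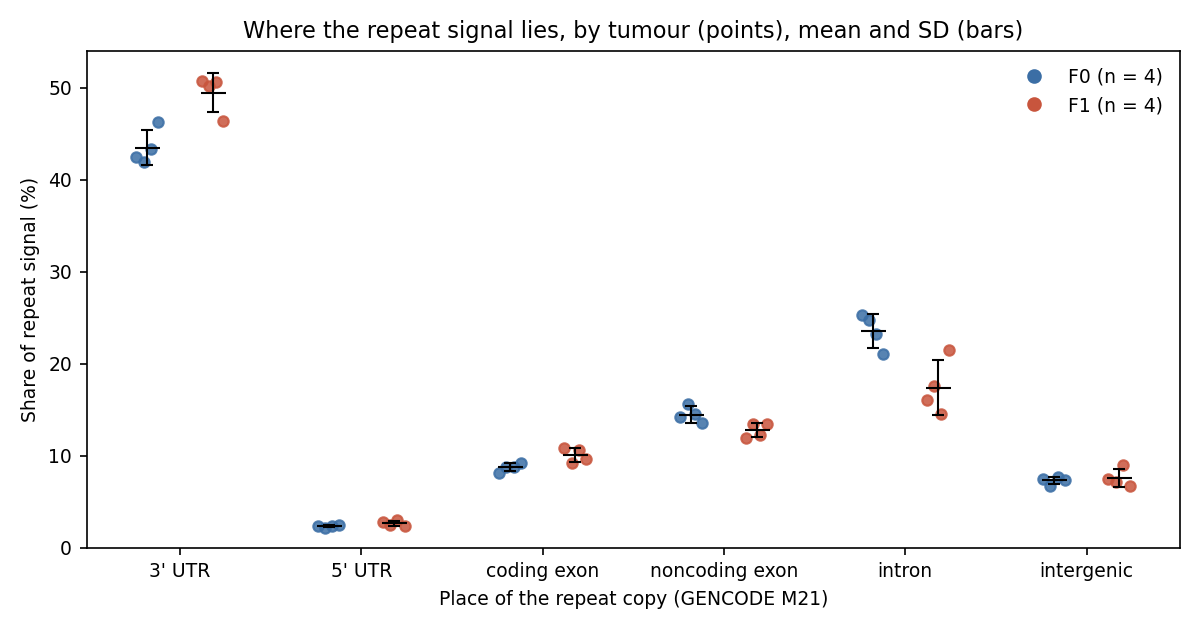
Percentage of each library's repeat signal in 6 kinds of position, 1 point per tumour, F0 and F1 side by side, with the mean and SD of each group (n = 4) as black bars. F1 A, B and D have less intron signal (14.6 to 17.5%) and more 3′ UTR signal (50.2 to 50.8%) than every F0 tumour, while F1 E (21.4 and 46.4%) lies at the F0 values.

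The same pattern appeared inside single genes, where changes in the amount of a transcript drop out. For 1958 genes with a mean signal of at least 20 in both intron and coding-transcript copies, the log2 ratio of intron to exon signal was computed per gene and centred on the mean over all libraries (a measure chosen after the shares had been seen). Its median per library was 0.40, 0.37, 0.21 and −0.01 in F0 A to D and −0.54, −0.37, −0.70 and −0.03 in F1 A, B, D and E. All F1 medians lay below all F0 medians, F1 E only just (exact two-sided permutation p = 0.0286, the smallest possible). The ratio was lower in F1 for 93.0% of the genes, with a median difference of −0.69. In 412 genes all F1 tumours were below all F0 tumours and in 2 all were above. Unpassaged cells ranged from −0.44 to −0.13 and F2 tumours from −0.76 to 0.31.

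Summed over all intron copies of a gene, 626 of 9504 genes (6.59%) were called, 614 lower (6.46%) and 12 higher (0.126%), around a median of −0.57 over all 9504. With TMM factors 78 genes (0.821%) were called, 69 lower and 9 higher, and with median-of-ratios factors 185 (1.95%). Each of those 69 falls was among the 614. The count was 1841 without F1 E and 55 without F0 A, and with the 8 libraries alone only Nlrp2 was called. The 12 protein-coding genes with the lowest p, all lower, kept their call without each of the 8 tumours in turn and under TMM. With the intron share of each library as a covariate only 3 of the 9504 genes were called, around a median of −0.05. Among the 12 only Nlrp2 kept its call there, and the others had limma adjusted p from 0.14 to 0.48. The tumour letter as a replicate block gave 0 calls.

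Nlrp2, a member of the NLR family of cytoplasmic sensors, gave the largest contrast. The sum over its 25 intron copies (gene at chr7:5298547-5351035) was 26.5, 56.4, 24.5 and 38.7 in F0 and 0, 0, 1.07 and 0 in F1, that is a single read in 4 tumours. The fitted difference on the log2(signal + 1) scale was −4.89 (SE 0.68, limma adjusted p = 4.0e-05, 0.0041 with the intron share as a covariate). Unpassaged cells had 40.6 to 82.8 and F2 tumours 1.82 to 22.9, so every library of both groups lay above the F1 tumours. None of the 25 copies reached the filter alone.

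Rasgrf1, a guanine nucleotide exchange factor that activates Ras and is imprinted in the mouse, fell over its 72 intron copies from 200, 796, 757 and 303 in F0 to 19.3, 67.5, 127 and 21.6 in F1 (−3.29, SE 0.58, adjusted p = 0.0020). Every F1 tumour was below every F0 tumour, and the F0 tumours differed among themselves by a wide margin. A SINE copy in its intron, ID_B1 at chr9:90019290-90019486, had 72.2, 369, 269 and 108 in F0 and 1.76, 37.1, 50.3 and 4.70 in F1 (−3.67, SE 0.64, adjusted p = 0.0076). F1 A and F1 E were lowest there, and unpassaged cells had 109 to 156. A neighbouring DNA transposon copy, MER20 at chr9:90017589-90017753, fell as well (−2.86, adjusted p = 0.0076). F2 tumours held 32.5 to 194 over the ID_B1 copy, between the lowest F1 and the highest F0 values.

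Dock6, an exchange factor for the GTPases Rac1 and Cdc42, fell over 85 intron copies from 150, 91.1, 169 and 66.7 to 17.6, 45.0, 19.3 and 32.9 (−2.02, SE 0.34, adjusted p = 0.0011). Its PB1D10 copy was 17.4, 11.3, 16.3 and 7.73 in F0 and 2.64, 0, 0 and 0 in F1. Dock6 was not lower in introns alone: its coding-transcript copies held 39.3, 26.0, 36.8 and 26.1 in F0 and 10.5, 18.004, 9.63 and 14.1 in F1, with no overlap, though that difference did not pass the test (−1.25, adjusted p = 0.108). The coding-transcript copies of Rasgrf1 held 1.83 to 32.1 in F0 and 0 to 12.8 in F1, which overlap.

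In Atl3 and Snap23, also among the 12, intron sums fell while the sums over exon copies overlapped between the passages. Atl3, an atlastin GTPase that shapes the endoplasmic reticulum, had intron sums of 35.6, 40.8, 29.6 and 27.1 in F0 and 8.78, 12.4, 5.35 and 9.40 in F1 (−1.81), while its coding-transcript copies held 2644, 2169, 1817 and 2403 in F0 and 1348, 2379, 2489 and 1491 in F1, which overlap. Snap23, a membrane fusion protein, fell over introns (−1.61), with coding sums of 59.9 to 88.6 in F0 and 60.6 to 87.4 in F1. Rida (−2.57), the cation channel gene Trpm4 (−2.59), Plvap (−2.58), the securin gene Pttg1 (−2.31) and the collagen prolyl hydroxylase gene P4ha2 (−2.76) fell by similar amounts over introns. Plvap, known from endothelial cells, ranged from 63.8 to 275 in F0 and 7.90 to 53.6 in F1. Unpassaged YUMM1.7 cells ranged from 32.9 to 440 there, and no gene of the fixed endothelial list passed the filter.

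**Figure D2:**
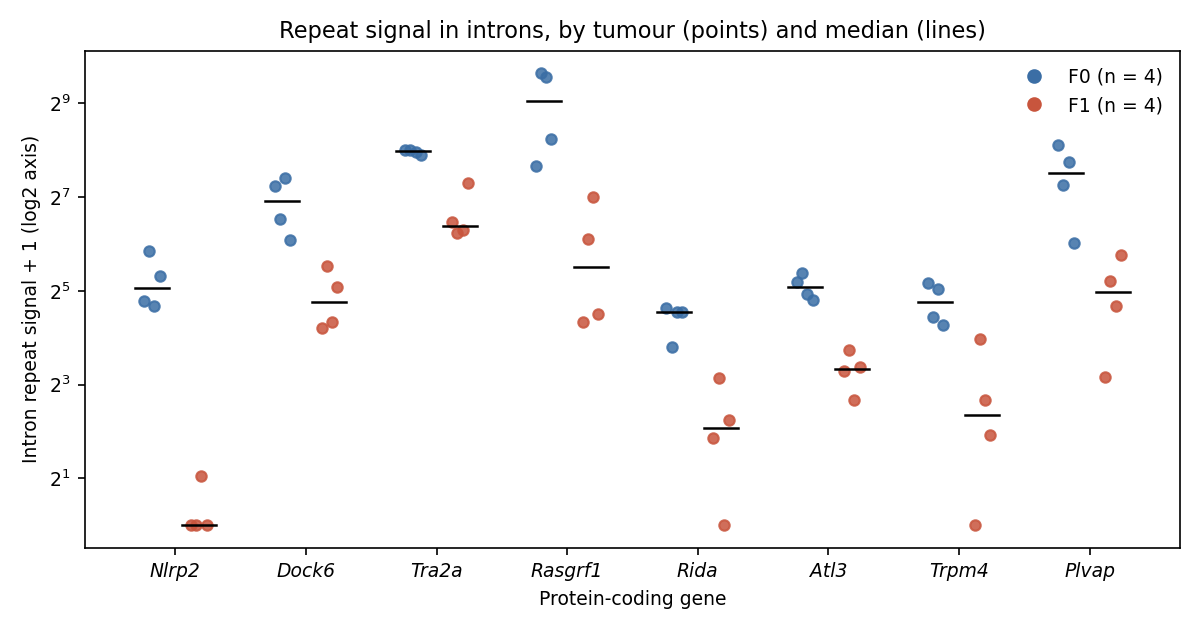
Signal summed over the intron repeat copies of 8 genes, 1 point per tumour, on a log2 axis of signal + 1, with group medians as lines. All 4 F1 tumours lie below all 4 F0 tumours in each panel, and Nlrp2 falls to 0 in F1 A, B and E.

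Genes of the splicing machinery were among those with lower signal. Tra2a, an SR-like activator of exon inclusion, had intron sums of 254, 254, 249 and 236 in F0 and 87.8, 74.3, 78.1 and 157 in F1 (−1.38, SE 0.24, adjusted p = 0.0020). The F0 tumours were nearly equal, and F1 E was the highest of the F1 tumours. All 10 tested intron copies of Tra2a were lower and 5 of them were called, with 1 more called copy in an exon of a retained-intron transcript. Single called copies lay in introns of Hnrnpm (−1.53), which encodes a splicing-related RNA-binding protein, and of Luc7l2, an associate of the U1 snRNP (2 copies, −2.19 and −1.93). Srrm2 encodes a large scaffold protein of nuclear speckles, and its L2b copy in the 3′ UTR held 137, 134, 163 and 102 in F0 and 63.2, 78.8, 51.3 and 71.5 in F1 (−1.005, adjusted p = 0.031). The calls of the Hnrnpm, Luc7l2 and Srrm2 copies were each lost without F0 A, F0 B, F0 C or F1 A, among others. These genes were picked out after their values had been seen, and no list of splicing genes was counted.

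In exons of noncoding transcripts few copies were called: 8 of 2762 tested copies in retained-intron exons fell and none rose, with a median of −0.48 (−0.23 with TMM), against 2 of 2385 that fell and 1 that rose in other noncoding exons, with a median of −0.16 (0.09 with TMM, so its sign depends on the scaling). The difference between these counts was not tested, and 0.193% of all tested copies fell. Of the 8, the 4 copies of up to 200 bases that lie wholly inside 1 such exon are printed to show which SINE stretches inside the transcript carry the lower signal. Sequences are from the GENCODE M21 transcripts of the GRCm38 build, 5′ to 3′ along the transcript. Capitals mark CCTCTGC or its reverse complement GCAGAGG, a stretch that all 3 B1 copies share and the B3 copy lacks. Searched on both strands, it occurs in 5.0 to 5.2% of RefSeq promoter windows (GRCm38.p6) of the same lengths. The stretch was picked from these copies themselves, so it describes B1 sequence and says nothing about their lower signal.
B1_Mur1 in Commd6, chr14:101639897-101640034, minus strand: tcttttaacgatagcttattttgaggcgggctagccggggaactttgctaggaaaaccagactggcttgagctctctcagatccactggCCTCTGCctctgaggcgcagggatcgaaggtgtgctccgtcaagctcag
B1_Mur2 in Nktr, chr9:121731921-121732060, plus strand: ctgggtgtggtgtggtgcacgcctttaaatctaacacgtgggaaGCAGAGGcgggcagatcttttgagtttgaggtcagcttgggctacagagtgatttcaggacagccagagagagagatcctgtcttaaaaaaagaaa
B1_Mur3 in Sptbn1, chr11:30101742-30101883, minus strand: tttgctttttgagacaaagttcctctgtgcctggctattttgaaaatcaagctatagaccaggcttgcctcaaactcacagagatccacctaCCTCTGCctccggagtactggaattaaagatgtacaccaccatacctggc
B3 in Tra2a, chr6:49260884-49261048, minus strand: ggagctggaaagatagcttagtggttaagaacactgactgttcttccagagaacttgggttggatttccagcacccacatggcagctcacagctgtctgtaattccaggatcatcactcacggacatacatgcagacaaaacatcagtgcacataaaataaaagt

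All 4 of these copies, which were called on the same values, were lower in every F1 tumour than in every F0 tumour. The Commd6 copy had 14.6, 8.67, 10.2 and 12.6 in F0 and 3.51, 3.38, 2.14 and 2.82 in F1 (−1.65, adjusted p = 0.030). The copy in Nktr, which encodes a cyclophilin-related protein with a serine- and arginine-rich part, had 21.9, 12.1, 16.3 and 15.5 and then 0, 3.38, 3.21 and 6.58 (−2.32, adjusted p = 0.034). The Sptbn1 copy, in the gene of a spectrin chain of the membrane skeleton, went from 38.4, 30.4, 17.4 and 13.5 to 1.76, 9.002, 6.42 and 4.70 (−2.04, adjusted p = 0.035). The Tra2a copy went from 10.97, 19.95, 16.3 and 14.5 to 6.15, 2.25, 1.07 and 7.52 (−1.84, adjusted p = 0.031). Each of these 4 calls was lost when F0 A, F0 C or F1 D was left out, among others.

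Against this background 12 genes gained intron signal. Scaper, a gene linked to the cell cycle and cilia, had 24.7, 8.67, 18.4 and 21.3 in F0 and 191, 25.9, 67.4 and 183 in F1 (2.31, adjusted p = 0.0071), above F0 in every F1 tumour, and this held without each of the 8 libraries. In Camk2b, a calmodulin-dependent kinase gene, a murine leukaemia virus-related copy (RLTR4_MM-int) held 85.9, 65.9, 188 and 72.5 in F0 and 179, 864, 547 and 320 in F1 (2.101, adjusted p = 0.048). F1 A lay below F0 C there, and the call was lost without any of 6 libraries (all but F1 A and F1 E). F2 tumours held 356 to 954 over this copy. In an intron of Lrrc23 a B1_Mus2 copy (chr6:124772230-124772368) was at 0 in all F0 tumours and all unpassaged cells and at 213, 190, 2.14 and 36.7 in F1 (adjusted p = 0.036, but 0.096 with edgeR), and F2 tumours ranged from 0 to 160. F1 D was near 0, and the call was lost without F1 A, F1 B or any F0 tumour.

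Among copies in exons, the highest rises were shared by copies of the same genes. The gene AI467606 rose over its 5′ UTR copy MLTR14 (chr7:127091909-127092216), which held 2.74, 0, 1.02 and 3.87 in F0 and 14.1, 21.4, 10.7 and 18.8 in F1 (2.76, SE 0.48, adjusted p = 0.0076), and over its 3′ UTR copy MER113 (1.93). Gm14137 rose over all 3 of its 3′ UTR copies (chr2:119176017-119176848, by 2.40, 2.31 and 2.002). An ORR1B1 copy in an intron of Tpcn1, which encodes an endolysosomal ion channel, rose from 1.83, 0, 1.02 and 2.90 to 17.6, 7.88, 13.9 and 16.9 (2.74, adjusted p = 0.0081). Calls at MLTR14 and at the Tpcn1 copy held without each of the 8 libraries, as did those of lowered copies in Rasgrf1, Dock6, Tmem216 and Gm20388. The other named copies lost their call without at least 1 library, most often F0 C or F0 A.

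**Figure D3:**
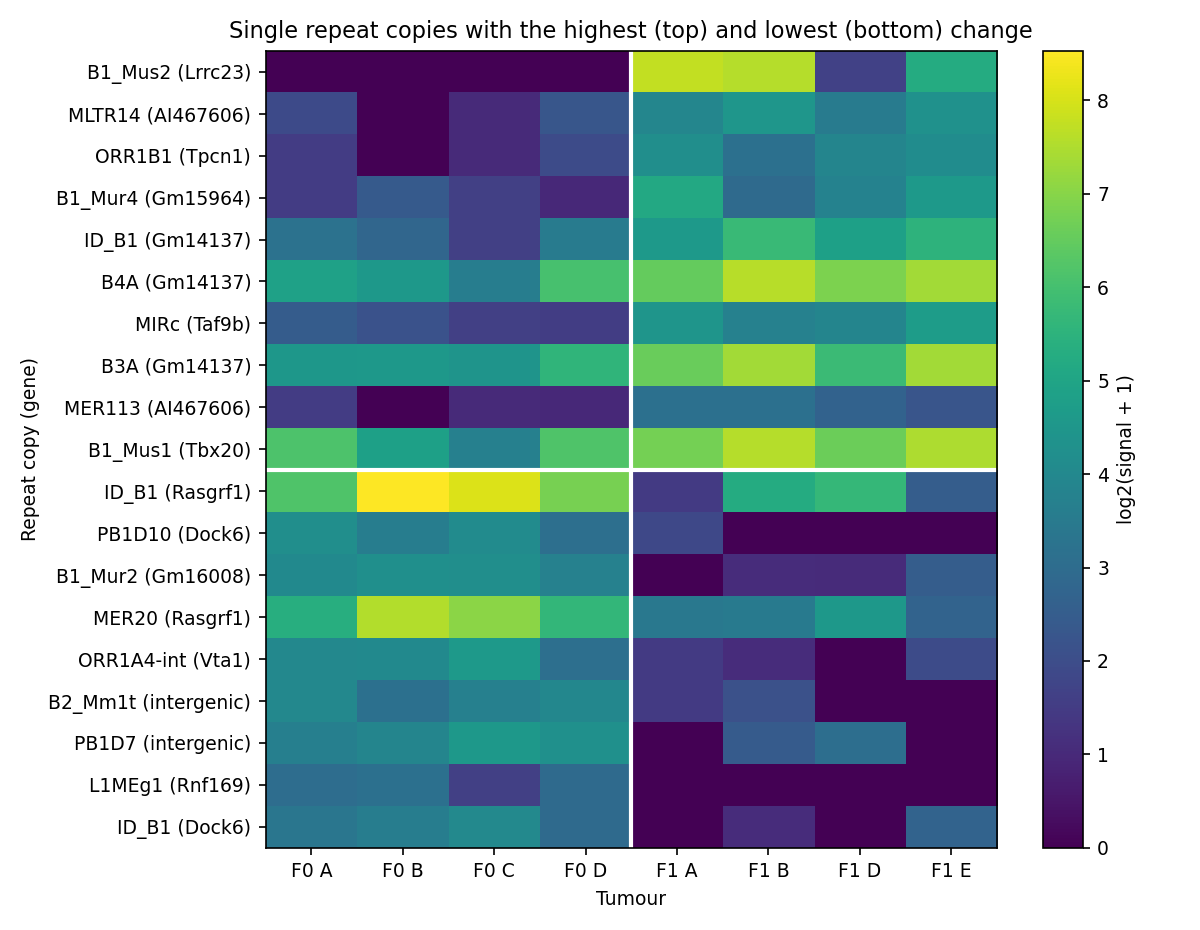
Heat map of single copies with the highest (top) and the lowest (bottom) log2 differences among called copies whose groups do not overlap, 1 column per tumour, coloured by log2(signal + 1). In each raised copy every F1 column is above every F0 column, in each lowered copy every F1 column is below, and the Lrrc23 copy is near 0 in F1 D as well.

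Read through all exon copies of a host gene, the adenylyl cyclase gene Adcy7 and the lactate transporter gene Slc16a1 rose in F1, and the cilium gene Tmem216 and the collagen cross-linker gene Pxdn fell. Over these sums 61 of 7405 genes (0.824%) were called, 28 higher (0.378%) and 33 lower (0.446%). With TMM factors the count was 417 (5.63%), 383 higher and 34 lower, and with median-of-ratios factors 154 (2.08%). All 28 rises and 26 of the 33 falls were called under all 3 scalings. With the sum restricted to copies of coding transcripts 31 of 4664 genes (0.665%) were called, 24 higher (0.515%) and 7 lower (0.15%), and 580 (12.4%) with TMM or 190 (4.07%) with median-of-ratios factors. Of the 33 lowered genes 7 were also called lower over coding transcripts: Tmem216, Pxdn, Srrm2, Zfp169, Zbtb37, Plce1 and Zfp207. Rock2, Naaa and Krit1 were lower there without a call (limma adjusted p = 0.090, 0.058 and 0.298). The other lowered genes had no tested sum over coding transcripts, so nothing is known of them there. The counts ranged from 14 without F1 A to 110 without F1 B. Of the 61 genes, 9 were called without each library in turn: AI467606, Taf9b, Gm14137, Slc25a44, Ankrd13c and Capza1, which rose, and Rnf169, Tmem216 and Tra2a, which fell.

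The genes that rose had varied roles. Adcy7, an adenylyl cyclase that makes cyclic AMP, had 106, 115, 113 and 126 in F0 and 386, 154, 252 and 382 in F1 (1.26, SE 0.27, adjusted p = 0.019). All F1 tumours were above F0, F1 B least. The call was lost without F0 A or F1 A. Gm14137 had 58.5, 51.2, 33.7 and 124 in F0 and 210, 412, 197 and 369 in F1 (2.22, SE 0.44, adjusted p = 0.010). Taf9b, a subunit of the general transcription factor TFIID, rose from 4.57, 3.47, 2.04 and 1.93 to 21.1, 12.4, 13.9 and 25.4 (2.26, adjusted p = 0.0088). Tbx20, a T-box transcription factor best known from heart development, rose from 75.8, 28.6, 12.3 and 71.5 to 111, 199, 101 and 182 (1.89, adjusted p = 0.013), a call lost without F0 C (0.062). Lpar2, a lysophosphatidic acid receptor (0.99), the amino acid transporter gene Slc36a1 (0.84), the fatty acid transporter gene Slc27a1 (0.80) and the transcription factor IIIC gene Gtf3c6 (1.01) rose too, and each of these 4 calls was lost without any of at least 3 libraries. Slc27a1 was read through retained-intron transcript copies only.

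Tmem216, which encodes a protein of the ciliary transition zone, fell most among genes read through coding transcripts and called without each library. It held 28.3, 36.4, 19.4 and 26.1 in F0 and 2.64, 5.63, 5.35 and 2.82 in F1 (−2.51, SE 0.48, adjusted p = 0.0088). The groups were far apart, and unpassaged cells, at 8.08 to 12.6, lay between them. Pxdn, a peroxidasin that cross-links collagen IV, fell from 22.8, 21.7, 14.3 and 13.5 to 1.76, 11.3, 1.07 and 5.64 (−2.004, adjusted p = 0.031, lost without F1 A, F1 D or any F0 tumour but D). Rock2, a kinase that acts on the actin and myosin skeleton, had 27.4, 19.1, 23.5 and 28.0 in F0 and 1.76, 5.63, 7.49 and 5.64 in F1 (−2.16, adjusted p = 0.013), but over its coding-transcript copies alone the adjusted p was 0.090, and without F1 A 0.096. Rnf169, a ubiquitin ligase that binds at DNA breaks, held 7.31, 9.54, 4.09 and 6.77 in F0 and 0 in all F1 tumours, through copies of noncoding transcripts. Erbin, a scaffold protein (−2.64), Mon2 (−2.27), the ubiquitin ligase gene Rbck1 (−2.05) and the aminopeptidase gene Npepps (−1.73) fell through noncoding-transcript copies, and each lost its call without F0 A, F1 A or F1 D, among others.

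Chromosome 3 was the chromosome with the largest shift of exon copies towards F1. The median shift of its 370 well-covered exon copies, relative to the library's median chromosome on the log2 scale, was −0.10, −0.15, −0.14 and −0.07 in F0 and 0.03, 0.09, 0.15 and 0.19 in F1. All F1 tumours lay above all F0 tumours, with a difference of 0.23 (exact two-sided permutation p = 0.0286, the smallest possible, adjusted over 20 chromosomes 0.286). Chromosome 14, with a difference of −0.07, reached the same p, so the test does not set chromosome 3 apart. Unpassaged cells had shifts of −0.17 to −0.13 and F2 tumours of −0.02 to 0.31. The difference stayed between 0.207 and 0.261 when 1 library was left out.

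The rise ran along the distal part of the chromosome. In bins of 20 Mb the difference between the group means was −0.04, 0.01 and −0.02 over the first 60 Mb, then 0.24, 0.30, 0.39, 0.29 and 0.18 up to 160 Mb. The groups did not overlap between 80 and 140 Mb. These bins hold 32 to 112 copies each, apart from the first, from 0 to 20 Mb, which holds 15. DNA was not measured in these libraries.

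**Figure D4:**
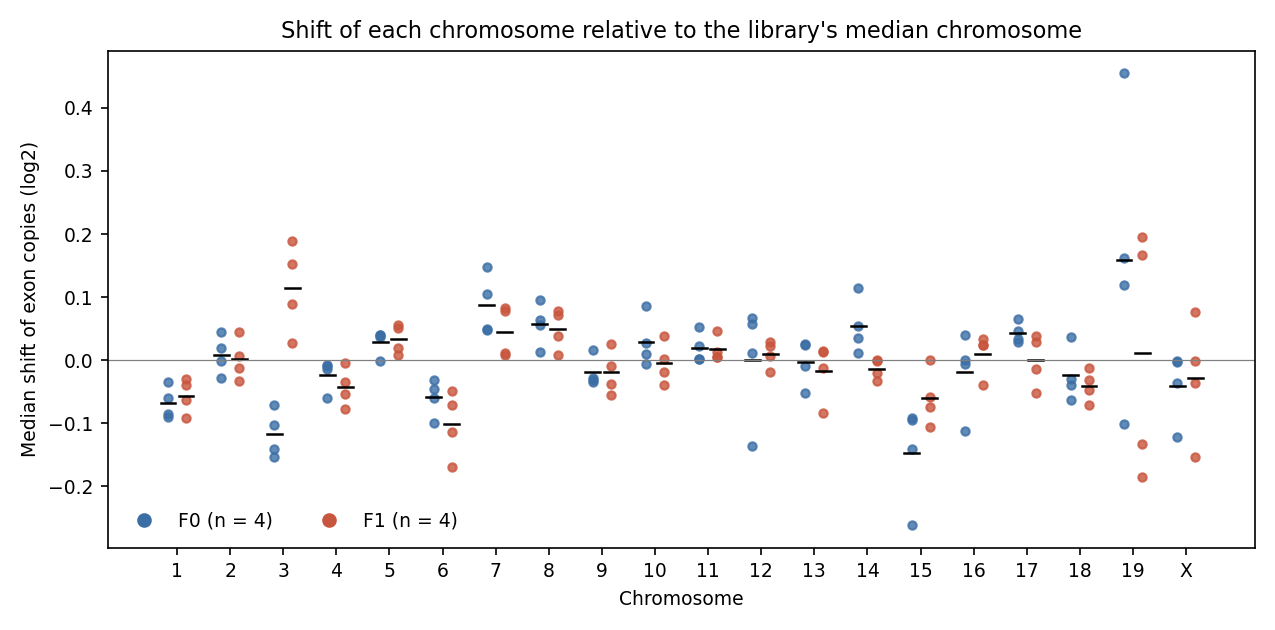
Median log2 shift of exon repeat copies on each chromosome relative to the library's median chromosome, 1 point per tumour, with group means as lines. On chromosome 3 all F1 tumours (0.03 to 0.19) lie above all F0 tumours (−0.15 to −0.07), and chromosome 19 varies most between tumours of the same passage.

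Of 399 tested host genes on chromosome 3, 13 rose (3.26%) and 0 fell, against 15 of 7006 (0.214%) that rose elsewhere, and 9 of the 25 raised copies lay there. The median difference was 0.14 for genes of chromosome 3 and −0.06 for the others, or 0.39 and 0.20 with TMM. With TMM 70 of the 399 rose (17.5%), against 313 of 7006 elsewhere (4.47%). The groups did not overlap in any of the 13 genes, but these genes were called on the same values, so this adds no support. Capza1, a subunit of the protein that caps actin filament ends, had 1936, 2062, 1981 and 2075 in F0 and 3433, 2710, 3134 and 3602 in F1 (0.67, adjusted p = 0.0069). The F0 tumours differed by little, F1 B was the lowest of F1, and F2 tumours stayed at 2680 to 3173. Slc25a44, a mitochondrial carrier of branched-chain amino acids, had 174, 170, 165 and 140 and then 327, 261, 208 and 319 (0.76, SE 0.13, adjusted p = 0.0062). Ankrd13c had 260, 262, 256 and 291 and then 388, 461, 389 and 551 (0.73, adjusted p = 0.0088). These 3 were called without each library.

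Slc16a1 encodes the lactate and pyruvate transporter MCT1 and had 234, 381, 312 and 388 in F0 and 780, 415, 554 and 1135 in F1 (1.06, adjusted p = 0.035), a call lost without F0 A, F0 C, F1 A, F1 D or F1 E. Vangl1, of the planar cell polarity pathway, had 111, 143, 109 and 137 and then 212, 216, 213 and 268 (0.86, adjusted p = 0.018), lost without F0 A or F0 C. Mrpl9, a mitochondrial ribosomal protein, had 142, 153, 143 and 153 and then 288, 213, 237 and 267 (0.76, adjusted p = 0.014), lost without F1 A. Cisd2 (0.71), Isg20l2 (0.69), the zinc transporter gene Slc39a1 (0.66), Lamtor5 of the Ragulator complex (0.63), the deubiquitinase gene Otud7b (0.62), Jtb (0.62) and Cdc42se1 (0.61) rose by similar amounts, and each of these calls was lost without F1 A, that of Lamtor5 without no other library. Nras, the Ras family oncogene on this chromosome, had 399, 565, 477 and 542 in F0 and 760, 578, 519 and 818 in F1, with overlap (0.42, adjusted p = 0.139, and 0.015 with TMM).

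At the level of subfamilies 49 of 1004 (4.88%) were called, 4 higher (0.398%) and 45 lower (4.48%), but this balance turned with the scaling: 87 were higher and 8 lower with TMM (95 in all, 9.46%), and 9 higher and 5 lower with median-of-ratios factors (14 in all, 1.39%). All 4 rises and 5 of the 45 falls (Tigger1, L1MEg1, RLTR13A3, MER92-int and LTR79) were called under all 3. With copies outside exons only, 230 of 915 subfamilies (25.1%) were called, 229 of them lower, or 17 with TMM. The count was 4 without F0 A and 131 without F1 E. Calls at Tigger1, L1MEg1, MER92-int and MLTR18B_MM held without each library.

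Tigger1, an ancient DNA transposon of the mariner group, fell most firmly. It held 206, 243, 217 and 170 in F0 and 81.7, 74.3, 59.9 and 106 in F1 (−1.38, SE 0.17, adjusted p = 1.2e-06, and 0.010 with the 8 libraries alone). Unpassaged cells, at 119 to 154, and F2 tumours, at 106 to 154, lay between the groups. A copy in an intron of Psip1, which encodes a chromatin-bound transcriptional coactivator, held 19.6% of its signal, and a copy in an intron of Gstz1 10.3%. A Tigger1 copy in a Rasgrf1 intron (chr9:89965751-89966448) held 4.57, 26.9, 26.6 and 9.67 in F0 and 0, 0, 2.14 and 0 in F1. A nearby Rasgrf1 copy (chr9:89964829-89965603) held 12.8, 11.3, 24.5 and 9.67 and then 0, 0, 3.21 and 1.88. Part of the Tigger1 fall thus repeats that of Rasgrf1. Tigger1 and MLTR18B_MM were also the 2 subfamilies called with the intron share as a covariate (adjusted p = 0.00017 and 0.017). L1MEg1, an old L1 subfamily, had 38.4, 39.0, 31.7 and 47.4 and then 16.7, 18.004, 15.0 and 12.2 (−1.28, adjusted p = 0.0068). MER92-int had 63.1, 42.5, 66.4 and 47.4 and then 25.5, 24.8, 16.0 and 40.4 (−1.06, adjusted p = 0.0061), and a copy in Nbeal1 held 84.6% of its signal.

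Of the 4 subfamilies that rose, MLTR18B_MM and MLT1H were read mostly through a single copy in a host gene. MLTR18B_MM, an LTR element, had 2040, 2161, 2061 and 2167 in F0 and 3500, 2788, 3179 and 3689 in F1 (0.63, SE 0.10, adjusted p = 0.00026, and 0.010 with the 8 libraries alone). Its copy in the 3′ UTR of Capza1 held 97.0% of the signal, so this rise repeats that of Capza1. MLT1H rose by 0.46 (adjusted p = 0.038), with 76.6% of its signal in the 3′ UTR of Srxn1. MIRc, an ancient SINE spread over many genes, rose from 9788, 8886, 8715 and 9245 to 10187, 10496, 10616 and 10222 (0.18, adjusted p = 0.048), and this call was lost without any of 7 libraries (all but F1 E). MER96B rose by 0.47 (adjusted p = 0.038), with F1 B within the F0 range. The calls of MLT1H and MER96B were both lost without F1 A, F1 D or any F0 tumour but D, and that of MER96B also without F1 E.

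Most subfamilies of endogenous retroviruses that can still make transcripts of their own did not pass the test. MMETn-int, the internal part of the ETn elements, is matched by none of the fixed lists and fell from 208, 213, 292 and 152 to 135, 136, 135 and 134 (−0.64, adjusted p = 0.048, but 0.22 with TMM), a call lost without F0 A, F0 B, F0 C, F1 A, F1 B or F1 D. Among listed subfamilies, none of 24 tested IAP subfamilies, 9 ETn/MusD, 12 MMERVK10C, 5 murine leukaemia virus-related, 5 VL30 and 8 MERVL subfamilies was called at the deposited scaling. With TMM 1 of MMERVK10C, 1 murine leukaemia virus-related and 2 MERVL subfamilies were higher. Over all 1004 subfamilies 4.88% were called at the deposited scaling, and 87 were higher with TMM, so these counts do not set the retroviral lists apart. Medians were −0.06 for IAP, −0.53 for ETn/MusD and 0.03 for MERVL, against −0.17 for all subfamilies (0.21, −0.26, 0.30 and 0.10 with TMM, so that only ETn/MusD stayed below 0). IAPEz-int, the internal part of the mobile IAP retrotransposon, had 8614, 5747, 4889 and 6271 in F0 and 7115, 7897, 6485 and 5767 in F1 (0.12, adjusted p = 0.83). MMVL30-int, of the VL30 retroelements, had 14024, 11149, 19304 and 11332 and then 18239, 15873, 32773 and 11581 (0.42, adjusted p = 0.46), and F1 D was the highest of the 8. MMERGLN-int had 64458, 76304, 67238 and 54887 and then 28387, 57887, 40322 and 54046 (−0.59, adjusted p = 0.072). A copy at Gm42047 on chromosome 8 held 82.1% of that signal, F1 B lay above F0 D, and without F1 B or F1 E the difference passed the threshold (−0.72 and −0.69).

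Medians of the L1 and SINE lists changed sign with the scaling. Over all subfamilies 4.48% fell at the deposited scaling and only 8 of 1004 with TMM. Of 25 young L1 subfamilies 0 rose and 2 fell (median −0.17, or 0.10 with 0 falls under TMM), and of 92 older L1 subfamilies 0 rose and 10 fell (median −0.14, or 0.13 with 3 falls and 8 rises under TMM). Of 15 B1 subfamilies none was called (median −0.01), whereas 12 were higher with TMM (median 0.27), and none of 5 B2 subfamilies was called (median −0.14, or 0.13 with TMM). Of 150 DNA transposon subfamilies 1 rose and 6 fell (median −0.15, or 0.13 with 2 falls and 12 rises under TMM). Of 38 RLTR13 and RLTR20 elements 0 rose and 2 fell, and their median was below 0 with both factors (−0.37, or −0.10 with 1 fall under TMM).

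No gene of the 19 fixed lists was called at the deposited scaling. The interferon list had 35 of 51 genes tested with a median of 0.31 (0.54 with TMM, 1 called). Sterol synthesis had 22 of 28 with 0.18 (0.44, 2 called), antigen presentation 12 of 18 with 0.21 and cell division 19 of 37 with 0.07. Repeat silencing had 30 of 41 with −0.20 (0.06 with TMM, 1 called) and hypoxia and glycolysis 15 of 33 with −0.16 (0.12 with TMM). Matrix genes had 10 of 31 with −0.65 (−0.43 with TMM). The median over all 7405 genes was −0.05 (0.21 with TMM). With TMM 1 of 11 tested MAPK and PI3K genes was called as well, beside 417 of all 7405 genes (5.63%). Among the repeat silencing genes, Trim28, the KAP1 corepressor that silences retroviruses, had 51.2, 55.5, 34.7 and 23.2 in F0 and 19.3, 30.4, 16.0 and 28.2 in F1 (−0.75, adjusted p = 0.29), and the H3K9 methyltransferase gene Setdb1 had 154, 174, 148 and 135 and then 213, 176, 164 and 244 (0.36, adjusted p = 0.29). Neither passed the test.

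Interferon genes varied widely between tumours of the same passage. The summed signal of the interferon list was 8974, 1527, 3076 and 3818 in F0 and 1925, 12106, 2806 and 3088 in F1, high in F0 A and F1 B alone. Oasl2, an interferon-induced antiviral gene, had 511, 3.47, 32.7 and 104 in F0 and 10.5, 962, 47.1 and 70.5 in F1, and Ifit1 had 560, 12.1, 44.9 and 98.6 and then 88.7, 611, 102 and 93.1. The antigen presentation sum followed, with 4750, 1825, 3225 and 3787 in F0 and 2031, 8696, 3416 and 2964 in F1. H2-D1, a classical class I molecule, was 978, 574, 800 and 915 and then 806, 3261, 1146 and 1260. F0 A also held the most of the matrix protein gene Postn (1147, against 4.34, 1.02 and 235 in the other F0 tumours and 2.64, 146, 65.2 and 12.2 in F1) and the least of Rrm2, needed for DNA synthesis (127, against 322 to 357).

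Few markers of host cells passed the filter. Each gene was read only through repeat copies in its exons, so a value of 0 does not show that its mRNA was absent. Of 25 leukocyte markers only Cd14 passed the filter (3.06 to 19.2 in F0 and 8.46 to 26.7 in F1), Tyrobp, Laptm5 and Cd3e were at 0 in all 8, and Ptprc, the pan-leukocyte gene, was at 0 in 7 and at 1.07 in F1 D. The macrophage gene Adgre1 was at 11.3 in F1 B, 9.63 in F1 D and 0 in the other 6, and Itgam, Cx3cr1 and Cybb also had a few reads in F1 B and F1 D. Of 18 fibroblast markers 4 were tested, with sums of 751 to 3342 in F0 and 956 to 1531 in F1, while Dcn, Col1a1, Fap and Thy1 were at 0. Of 12 Schwann and nerve markers 2 were tested (sums 14.7 to 54.8 and 14.9 to 40.4), and no endothelial, keratinocyte, muscle or adipocyte marker passed the filter. Adgre1, Itgam and Cx3cr1 were at 0 in F0 A, which does not show their absence there. The interferon sum of unpassaged YUMM1.7 cells was 2090 to 6088. The part of host cells in the interferon signal of F0 A and F1 B was not tested.

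Sterol synthesis genes showed a different grouping, with F1 E apart. The summed signal was 16428, 18453, 11886 and 11268 in F0 and 23938, 25220, 29044 and 6316 in F1, so F1 A, B and D lay above all F0 tumours and F1 E below them. Scd2, a fatty acid desaturase with most of that signal, had 10942, 13262, 7304 and 6175 in F0 and 16759, 15547, 20188 and 3358 in F1. The sterol regulator gene Srebf2 had 295, 300, 309 and 335 and then 587, 507, 573 and 246 (0.55, adjusted p = 0.19), and without F1 E it passed the test (0.839). The tumour with F0-like intron and 3′ UTR shares was also the one with the lowest sterol signal.

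**Figure D5:**
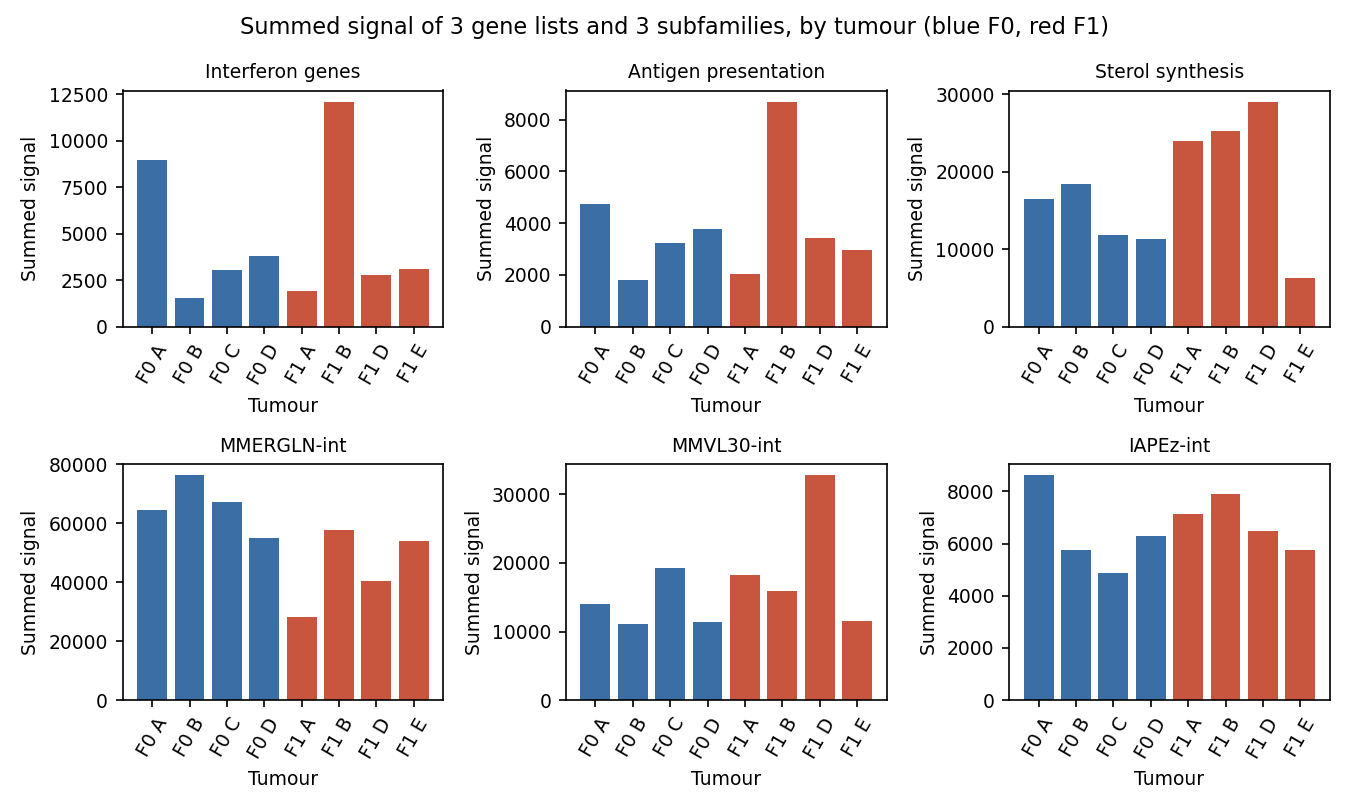
Summed signal of 3 gene lists and signal of 3 retroviral subfamilies in each of the 8 tumours, as bars from 0. Interferon and antigen presentation sums are highest in F0 A and F1 B, and the sterol sum is lowest in F1 E.

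Some copies were read in 1 passage only. With at least 3 reads in all 4 tumours of a passage and 0 in all 4 of the other, 26 copies were found in F0 only and 3 in F1 only, and with at least 5 reads the numbers were 1 and 0. Of the 26, 25 lay in introns, such as a B1_Mur1 copy in Dqx1 with 4, 9, 13 and 4 reads in F0. The 3 F1 copies were an intergenic IAPEz copy at chr5:37924353-37925341 with 8, 3, 8 and 4 reads, an IAPEY_LTR copy on chromosome 13 with 3, 5, 4 and 3 and a B3 copy in an intron of Khdc4 with 3 in each. A copy with 0 reads can hold up to 3 reads' worth of signal by counting error alone, so none of these counts shows absence. The rule used reads without scaling between libraries. F0 libraries held 1699060 to 2050776 reads and F1 libraries 1502938 to 1935341, and the mean intron shares were 23.6% and 17.4%. Whether the 26 and 3 copies go beyond these differences was not tested. Between tumours of a passage the median ratio of the highest to the lowest library was 1.58 over 4750 well-covered copies in F0 and 1.66 over 4725 in F1.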

How the data were processed

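Poly(A) RNA sequencing of cultured cells from 4 F0 and 4 F1 tumours was analysed from the deposited table of signal per repeat copy, on mm10 coordinates. Per the submitters' processing notes the tools were HISAT2 2.0.5, StringTie 1.3.3b and featureCounts 1.5.0-p3, with roles not given. No source used here says whether strand was used. The deposited signal is whole reads divided by 1 factor per library: within a tolerance of 0.1 reads every value came out as whole reads, and these recovered reads entered edgeR 4.0.16 and DESeq2 1.42.0 as alternatives.

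Copies were placed on GENCODE M21 with bedtools 2.31.1 and summed by subfamily, host gene exons or gene introns. Of the tested copies 489 lie in exons of 2 or more genes. limma 3.58.1 in R 4.3.3 was fitted to log2(signal + 1) with 1 mean per group over all 40 libraries, a trended prior, a mean signal of at least 5 and Benjamini-Hochberg adjustment. A difference on this scale understates changes of low signals. Shares and chromosome shifts had exact permutation tests, the latter over copies with a mean of at least 20. Scripts were tested on simulated data. TMM and median-of-ratios factors, other pseudocounts and filters, the 8 libraries alone, the intron share as a covariate, the tumour letter as a block and omission of each library were tried.

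Named were the 10 highest and 10 lowest called copies, 12 and 12 host genes and 8 and 8 subfamilies whose groups do not overlap (filled with uncalled ones where too few), 2 members of each repeat list and 3 of each gene list. Some items under this rule are not reported here. Genes named outside it were chosen after their values were seen. The comparison, the lists and the tests were chosen with earlier results of these data known. Sequencing was in 2 batches to which the labels assign no library, so batch and passage cannot be told apart. Reads carry no molecular identifiers, so counting limits cover counting error only.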

Additional observations from a re-analysis of the deposited data

Results flagged for a closer look

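In groups of 4 tumours, 16 of 312 groups examined held a tumour whose gap to the nearest other was large for the group's range. That is about the 5% that chance alone marks, so the marks listed here do not by themselves set a tumour apart. In F0 A these were Mon2 (32.0 against 7.81 to 9.19 in the other F0 tumours), Relch (19.2 against 11.3 to 12.6), Cmpk2 (56.7 against 0 to 6.77), H2-T23 (282 against 28.6 to 67.4), Cdkn1b (386 against 213 to 240.0) and Rrm2 (127 against 322 to 357). In F0 B it was the subfamily B1_Mm (17811 against 16411 to 16534). In F0 D it was the B3A copy of Gm14137 (47.4 against 20.4 to 22.6).

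Among F1 tumours, F1 A was marked at the PB1D10 copy of Dock6 (2.64 against 0). F1 B was marked at RLTR9C (16.9 against 9.63 to 10.5), Ifih1 (252 against 58.8 to 91.2), Cmpk2 (164 against 0.88 to 23.5) and H2-T23 (209 against 10.5 to 43.9). F1 E was marked at the subfamily MTC (6818 against 5463 to 5684), at Vangl1 (268 against 212 to 216) and in the share of signal in 3′ UTRs (46.4% against 50.2 to 50.8%).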

How the results depend on the processing

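With TMM factors 189 copies, 95 subfamilies and 417 host genes were called, and with median-of-ratios factors 14 subfamilies and 154 host genes. With no filter on low signals 37 copies and 28 host genes were called, and with a mean of at least 20 over all libraries 82 subfamilies. With only the 8 libraries in the fit the counts were 0, 2 and 0, with the intron share as a covariate 0, 2 and 0. edgeR called 47 copies, and DESeq2 19 subfamilies and 36 host genes. Copies outside exons gave 230 subfamilies, coding transcripts 31 genes and intron copies 626. Left-out libraries gave 10 to 392 copies, 4 to 131 subfamilies, 14 to 110 host genes, intron differences of −7.52 to −5.22 points and chromosome 3 shifts of 0.207 to 0.261. Shares over tested copies only gave −3.23 points, and a minimum of 5 reads left 0 copies in F1 only and 1 in F0 only. PB1D10 and BC1_Mm turned positive with TMM (0.270 each, adjusted p = 0.0343 and 0.0455). The cause of these changes was not tested. Same-letter tumours did not deviate together (correlations of −0.338, −0.361 and 0.108 for A, B and D). So few correlations cannot show whether tumours of the same letter share an origin. The fit with the letter as a replicate block called 0 copies, 1 subfamily and 0 host genes. Over all results and settings other than left-out libraries, 246 values missed the threshold in place of passing it, 32 newly passed it and 1438 kept their direction and their side of it. At under 3 reads a copy cannot be told from 0, which limits what single intron copies show.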

Other observations

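Some repeat copies were read in a single tumour. Counting copies with at least 20 reads in 1 of the 8 libraries and 0 in the other 7, F0 A to D held 2, 6, 12 and 4 and F1 A, B, D and E held 6, 7, 3 and 5. An intergenic B2_Mm2 copy at chr5:142934861-142935042 had 602 reads in F0 B and none in any other of the 40 libraries. An intergenic B1_Mus2 copy at chr11:29682799-29682944 had 539 reads in F0 C and was seen in 2 of the 40 libraries. A B1_Mus2 copy in an intron of Mtif2 had 246 reads in F1 E, and an intergenic L1Lx_III copy at chr6:47434049-47436964 had 267 in F0 D.

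Others were shared by a few tumours. An intergenic ID_B1 copy at chr5:142955278-142955393 had a signal of 576 in F1 B and 1524 in F1 D and 0 in the other 6. A B1_Mm copy at chr15:76937461-76937605 had 407 in F0 D and 630 in F1 A and 0 elsewhere among the 8. A B1_Mur4 copy in an intron of Tapbp had 868 in F1 A and at most 1.13 elsewhere. IAPEz copies in an intron of Wdr49 had 720 and 684 in F1 B and 62.8 and 66.7 in F0 D, and at most 6.42 in the others. Of the subfamilies, ERVB2_1-I_MM ranged from 13.9 to 150 in F0 and from 21.96 to 253 in F1. MLT1A1 was lowest in F1 E (3497, against 12097 to 14369 in the other F1 tumours). No test bears on these values.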
